A study of Drosophila melanogaster with 8 samples.

Results

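ZAM, gypsy5, HMS-Beagle2 and rover are LTR retrotransposon families of Drosophila melanogaster, and their RNA levels were followed here in ovaries across 4 groups of flies. They were chosen from 111 families of transposable elements (TEs) for a pattern in these samples. The mean level of each was over 2-fold higher in piwi-sKD than in no-KD, but lower in piwi-sKD,dcr2-sKD than in piwi-sKD,ctrl-sKD. Of 108 families with a first ratio 4 met both parts, which is 3.7%. Both comparisons were used to choose the families, so their levels in them are given as a description and with no test. The 8 samples were polyA-enriched RNA from pooled pairs of ovaries, 2 biological replicates in each group. A single fly line gave both no-KD and piwi-sKD. It carries w and tj-GAL4, in which the traffic jam promoter drives GAL4 in the follicle cells of the ovary, together with tubP-GAL80[ts] and sh-piwi. GAL80[ts] holds GAL4 back in the cold, so that the hairpin against piwi is made after a move to a warmer temperature. No-KD flies stayed at 20°C and piwi-sKD flies spent their last 5 days at 25°C. The double knockdown flies carried tj-GAL4 / + with GAL80[ts] sh-piwi over a second hairpin. This was sh-w in piwi-sKD,ctrl-sKD, the control, and sh-dcr2 in piwi-sKD,dcr2-sKD, both labelled with the same 5 days at 25°C. The library names of these 4 samples hold 28 in the place where the other names hold their temperature, and the label was followed. The sh-piwi transgene was thus present in all 4 groups, and the ages of the flies are not given in the labels.

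Piwi is a nuclear protein that is guided by small RNAs, the piRNAs, to nascent TE transcripts and silences their transcription. In follicle cells, which surround the germline, many piRNAs come from the flamenco locus on the X chromosome, where remnants of LTR elements lie mostly against the direction of transcription. LTR elements of the gypsy lineage are known to be expressed in these somatic cells, and several carry an env gene like that of retroviruses, ZAM among them. Dcr2 belongs to another small RNA pathway: it cuts double-stranded RNA into siRNAs, which guide Ago2 to complementary RNA.

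Levels are normalised counts, that is, reads per TE family divided by a size factor for each sample. Summed TE reads were between 78807 and 343458 per sample and were lowest in no-KD, while size factors lay between 0.927 and 1.13. A level of 3 reads, the floor set here, corresponded to 2.66 to 3.23 normalised counts, and each of the 4 families was above it in all 8 samples. The median log2 difference between replicates was 0.132 to 0.175. The data form 2 tables with separate size factors, the first with no-KD and piwi-sKD and the second with the double knockdowns, so levels are given across tables with no test. In whole ovaries, more cells with the RNA and more RNA per cell cannot be told apart. Gene rows were not used, so neither the knockdowns nor follicle cell markers were checked here.

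ZAM, an env-bearing element of the gypsy lineage, had the largest response to the Piwi knockdown. It stood at 186.5 and 162.5 normalised counts in no-KD (174.5 ± 17.0, SD, n = 2 for this and every group below), from 173 and 161 reads. In piwi-sKD it was at 6427 and 8054 (7241 ± 1151), which is 41.5 times the no-KD mean. Both piwi-sKD samples lay far above both no-KD samples, with single-sample ratios from 34.5 to 49.6. In the double knockdowns ZAM was much lower, at 1124 and 1308 normalised counts in piwi-sKD,ctrl-sKD (1216 ± 130.4). With the Dcr2 hairpin it was at 918 and 851 (884.5 ± 47.4), 1.37-fold lower than with the control hairpin. The samples of the pair did not overlap, but the closest of them, 918 and 1124, were 1.22-fold apart. The mean of piwi-sKD,dcr2-sKD was still 5.07 times that of no-KD, and that of piwi-sKD,ctrl-sKD was 6.97 times that of no-KD. In piwi-sKD,ctrl-sKD over no-KD, gypsy5 (41.2) and HMS-Beagle2 (20.2) were above ZAM, and rover (1.79) was below it.

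Gypsy5, an LTR element of the gypsy lineage that was also listed here as bearing env, changed in the same way in the first comparison. Without the Piwi knockdown it had 147.7 and 127.1 normalised counts (137.4 ± 14.5), and with it 3871 and 4512 (4191 ± 453), a ratio of 30.5. Unlike ZAM, it was no lower in the control double knockdown than in piwi-sKD, with 5439 and 5876 normalised counts (5657 ± 309). In piwi-sKD,dcr2-sKD it was at 3002 and 2344 (2673 ± 465), which is 2.12-fold lower than with the control hairpin. The higher of these samples was 1.81-fold below the lower control sample, so the 2 groups were well apart. All double knockdown samples lay above no-KD, at 41.2 times its mean with the control hairpin and 19.5 times with the Dcr2 hairpin.

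HMS-Beagle2 had the lowest level of the 4 families in no-KD and the largest difference between the double knockdowns. It stood at 69.0 and 62.6 normalised counts in no-KD (65.8 ± 4.56), from 64 and 62 reads. The 95% Poisson intervals of these samples were 53.1 to 88.1 and 48.0 to 80.2 normalised counts. They rest on reads derived from the values and cover counting error only. In piwi-sKD it was at 572 and 593 (582.6 ± 14.6), an 8.86-fold higher mean. The control double knockdown was higher again, at 1346 and 1305 normalised counts (1326 ± 28.9). Its piwi-sKD,dcr2-sKD samples were at 394 and 407 (400.6 ± 9.52), 3.31-fold lower than with the control hairpin, and single-sample ratios ran from 3.20 to 3.42. Replicates of HMS-Beagle2 were close together in all groups, and with the Dcr2 hairpin the family was below its level in piwi-sKD too, at 6.1 times the no-KD mean.

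Rover, also counted among the gypsy-lineage families with an env gene, was the most abundant of the 4 in no-KD and the least changed. Its no-KD samples had 664 and 560 normalised counts (612 ± 73.6) and its piwi-sKD samples 1210 and 1243 (1226 ± 23.2). The ratio of the means was 2.003, just inside the rule. It was below 1 when the summed TE signal was made equal in all samples (0.779). The same held when each sample was centred on its family of median level, the median family below (0.864). Divided by the median ratio of all families, the ratio as deposited was 1.45. Without no-KD replicate 2 the ratio of the means was 1.85 and without piwi-sKD replicate 2 it was 1.98, both under 2-fold. With the control hairpin rover was at 1000 and 1187 normalised counts (1094 ± 132), and with the Dcr2 hairpin at 797 and 885 (841 ± 62.4), 1.30-fold lower. The closest samples of this pair were 1.13-fold apart, a gap near the spread between the replicates of either group.

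**Figure D1:**
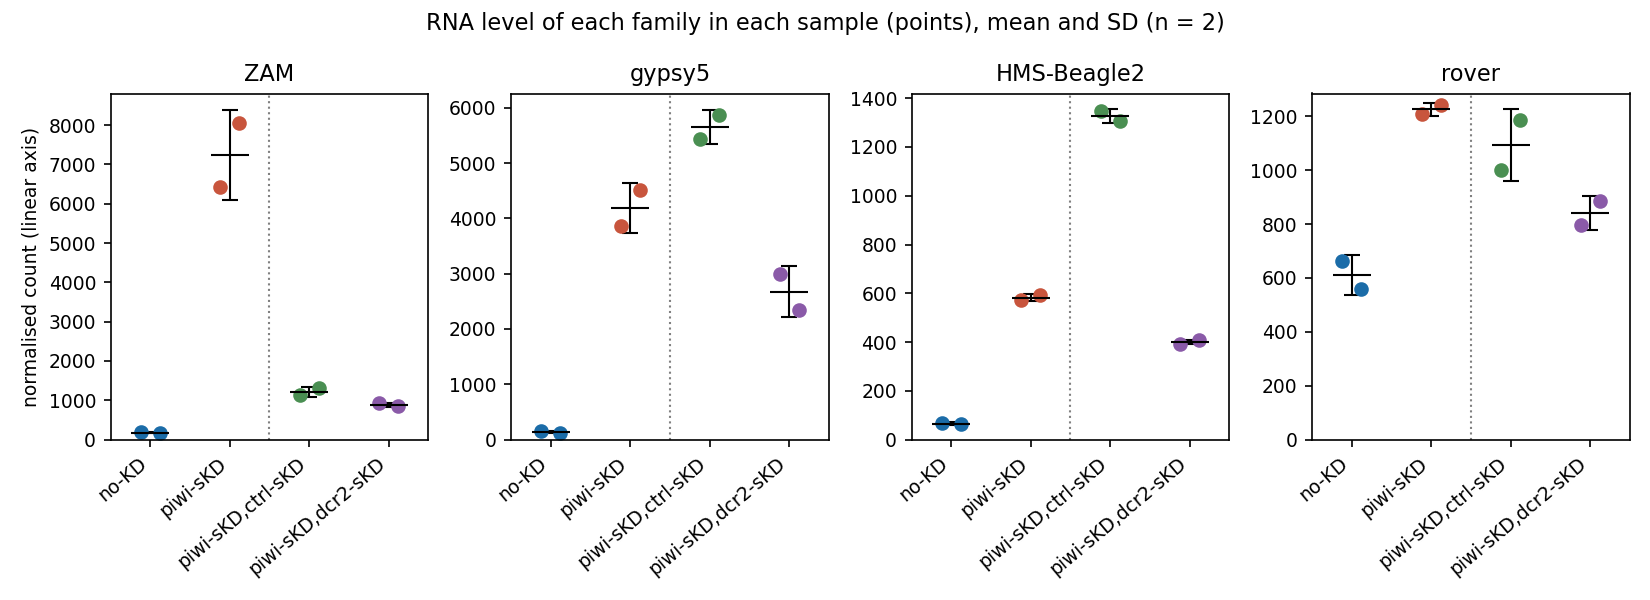
RNA level of ZAM, gypsy5, HMS-Beagle2 and rover in normalised counts (linear axes that start at 0, a scale of its own for each family) in the 4 groups. Points are the 2 samples of a group and bars the mean ± SD, and the dotted line parts the 2 tables with separate size factors. ZAM was highest in piwi-sKD at 6427 and 8054, gypsy5 and HMS-Beagle2 in piwi-sKD,ctrl-sKD, and rover differed least between groups, with the direction of its first ratio dependent on the scaling of the samples.

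The rule sets no-KD below piwi-sKD and piwi-sKD,dcr2-sKD below piwi-sKD,ctrl-sKD, so the order of the groups is partly fixed by the choice of families. The rest of the order compares groups across the 2 tables. The lower places were alike for the 4 families and the upper places were not. In normalised counts as deposited, no-KD was the lowest group for each of the 4 families, piwi-sKD,dcr2-sKD came next, and piwi-sKD and piwi-sKD,ctrl-sKD held the upper places in an order that depended on the family. Piwi-sKD,ctrl-sKD over piwi-sKD was 0.168 for ZAM, 0.89 for rover, 1.35 for gypsy5 and 2.28 for HMS-Beagle2. Over 105 families with a mean of at least 10 in both tables that ratio had a median of 0.838 and ran from 0.161 to 475, the last for Tirant. ZAM had the next to lowest of these 105 ratios and HMS-Beagle2 was at place 100 from the lowest. These flies differed in their cross and in the second hairpin as well as in the table, which cannot be told apart. For rover the nearest samples of piwi-sKD and piwi-sKD,ctrl-sKD were at 1210 and 1187 normalised counts, so these neighbours in the order were hardly apart.

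The share of the summed TE signal does not depend on the size factors, but it depends on the other families in the sum. One of them differed greatly between the tables: Tirant, an LTR element of the env list, made up 0.113% and 0.155% of the signal in no-KD and 0.0874% and 0.0421% in piwi-sKD. It held 32.9% and 36.4% with the control hairpin and 17.9% and 21.6% with the Dcr2 hairpin. Shares are therefore given with Tirant in the sum and, where the order of the groups depends on it, also without. The 4 families together made up 1.23% and 1.15% of that signal in the no-KD samples and 6.08% and 6.23% of it with the Piwi knockdown. In the double knockdowns they held 4.62% and 5.40% with the control hairpin, then 1.60% and 1.53% with the Dcr2 hairpin. Without Tirant in the sum the shares were 6.89% and 8.48% with the control hairpin, above the 6.1% and 6.23% of piwi-sKD, and 1.95% and 1.95% with the Dcr2 hairpin. The last was thus, with Tirant or without, nearer to no-KD than to the other knockdowns in share, although the summed level of the 4 was 4799 normalised counts there against 989.8 in no-KD. ZAM alone made up 3.36% ± 0.176 of the TE signal in piwi-sKD, against 0.210% ± 0.00810 in no-KD and 0.288% ± 0.00150 with the Dcr2 hairpin. Gypsy5 was the largest of the 4 in the double knockdowns, with 3.05% ± 0.325 in the control and 0.868% ± 0.100 with the Dcr2 hairpin. HMS-Beagle2 went from 0.0792% ± 0.000808 in no-KD to 0.713% ± 0.0217 with the control hairpin and 0.131% ± 0.0108 with the Dcr2 hairpin. For rover the order of the shares turned on Tirant. With Tirant in the sum rover had its highest share in no-KD, at 0.768% and 0.704%. The piwi-sKD samples had 0.609% and 0.538% and overlapped those with the control hairpin, 0.518% and 0.663%, while the Dcr2 hairpin samples were lowest, with 0.249% and 0.301%. Without Tirant the samples with the control hairpin had the highest shares, 0.773% and 1.04%, against 0.769% and 0.705% in no-KD, and those with the Dcr2 hairpin stayed lowest at 0.304% and 0.384%.

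Levels of different families can be compared only per length. As the length of a family, the median of its annotated insertions of at least 7000 bp was taken, 8.422 kb for ZAM, 7.364 kb for gypsy5, 7.276 kb for HMS-Beagle2 and 7.412 kb for rover. In no-KD rover had 82.6 ± 9.93 normalised counts per kb, ZAM 20.7 ± 2.02, gypsy5 18.7 ± 1.98 and HMS-Beagle2 9.04 ± 0.626. Rover was thus the highest of the 4 per length without the Piwi knockdown, while the samples of ZAM and gypsy5 overlapped there. In piwi-sKD ZAM led with 860 ± 137 normalised counts per kb, followed by gypsy5 (569 ± 61.5), rover (165 ± 3.13) and HMS-Beagle2 (80.1 ± 2.0). In piwi-sKD,ctrl-sKD gypsy5 led with 768 ± 42.0 per kb, and HMS-Beagle2 was at 182 ± 3.97, rover at 148 ± 17.8 and ZAM at 144 ± 15.5. The last of these groups, piwi-sKD,dcr2-sKD, had gypsy5 at 363 ± 63.2, rover at 113 ± 8.42, ZAM at 105 ± 5.63 and HMS-Beagle2 at 55.1 ± 1.31. Gypsy5 stayed the highest per length in both double knockdowns, and HMS-Beagle2 was again the lowest with the Dcr2 hairpin.

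The first comparison asked which TE RNAs rise when Piwi is depleted in follicle cells, and here it sets the 4 families against the others. The temperature of the last days differed between its groups together with the hairpin, and the 2 cannot be told apart in these samples. The paper reports a separate control for temperature, in flies of this line given a repressor of GAL4 that does not respond to it. By RT-qPCR, none of a subset of TEs rose in those flies after the same shift. Which of the 4 families were in that subset is not stated in its main text. Of 108 families with a ratio of group means 31 were over 2-fold higher in piwi-sKD, 28.7%, and the median ratio was 1.38. ZAM had the highest ratio of the 108, gypsy5 the next, HMS-Beagle2 was at place 10 and rover at place 31, the last inside the threshold. Divided by the median ratio, the 4 ratios were 30.02, 22.1, 6.41 and 1.45. With limma on log2(normalised count + 1) over all families, 60 of 109 were higher (55%) and 6 lower (5.5%) at a Benjamini-Hochberg adjusted p under 0.05, and samples did not overlap between the groups for 80 higher (73.4%) and 12 lower families (11%). The limma counts were 22 higher and 78 lower with the summed TE signal made equal, 22 and 71 with samples centred on the median family, and 28 and 35 with the median of families that are not LTR elements. These scalings moved the log2 ratios down by 1.37, 1.22 and 0.71, each more than the median log2 ratio of 0.47 over all families. The median log2 difference of all families was thus -0.88, -0.73 and -0.23 under these scalings. ZAM, gypsy5 and HMS-Beagle2 stayed higher in piwi-sKD under each of them, with ratios of at least 16.0, 11.8 and 3.44, whereas rover was at 0.779, 0.864 and 1.23.

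The second comparison asked whether loss of Dcr2 changes TE RNA levels in follicle cells that already lack Piwi. Its groups come from separate crosses, and the cross cannot be told apart from the loss of Dcr2. As deposited, TE RNA in general went the other way from the 4 families: the median ratio of 110 families was 1.18, and 27 were below 1 (24.5%). Over 2-fold higher with the Dcr2 hairpin were 13 families (11.8%), and over 2-fold lower were 4 (3.64%). These were HMS-Beagle2, gypsy5 and a pair of families, Q and BS4, with at most 1 read in any sample of this comparison. Among the 105 families with a mean of at least 10 in both tables, HMS-Beagle2 had the lowest second ratio and gypsy5 the next, with ZAM at place 5 and rover at place 6 from the lowest. Relative to the median ratio the 4 were 3.90-fold (HMS-Beagle2), 2.49-fold (gypsy5), 1.62-fold (ZAM) and 1.53-fold lower (rover). Limma called 30 of 110 families higher (27.3%) and 4 lower (3.64%), and the 4 were the families described here, which adds nothing since this contrast chose them. Samples did not overlap between the groups for 60 higher (54.5%) and 13 lower families (11.8%). The split of the limma calls was 12 higher and 65 lower with the summed TE signal made equal, 16 and 19 with samples centred on the median family, and 14 and 17 with the median of families that are not LTR elements. Each scaling made the 4 families lower still relative to the control, by 0.72, 0.37 and 0.39 on the log2 scale. These shifts were larger than the median log2 ratio of 0.24 over all families.

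**Figure D2:**
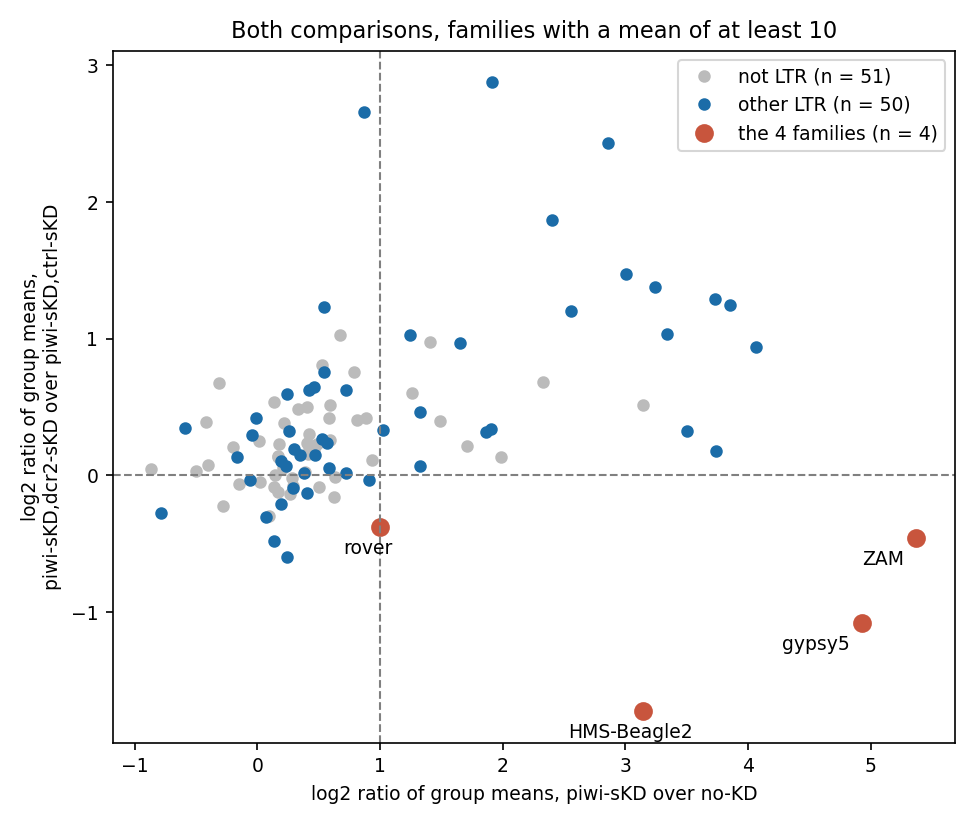
Log2 ratio of group means in the first comparison (horizontal axis) and in the second (vertical axis) for 105 families with a mean of at least 10 in both tables. Red points are the 4 families, blue points 50 other LTR families and grey points 51 families of other classes, and dashed lines mark a 2-fold first ratio and a second ratio of 1. The 4 families fill the lower right field, which is what the rule selects, with rover on its border at a first ratio of 2.003 that falls below 1 under 2 of the 3 other scalings.

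**Figure D3:**
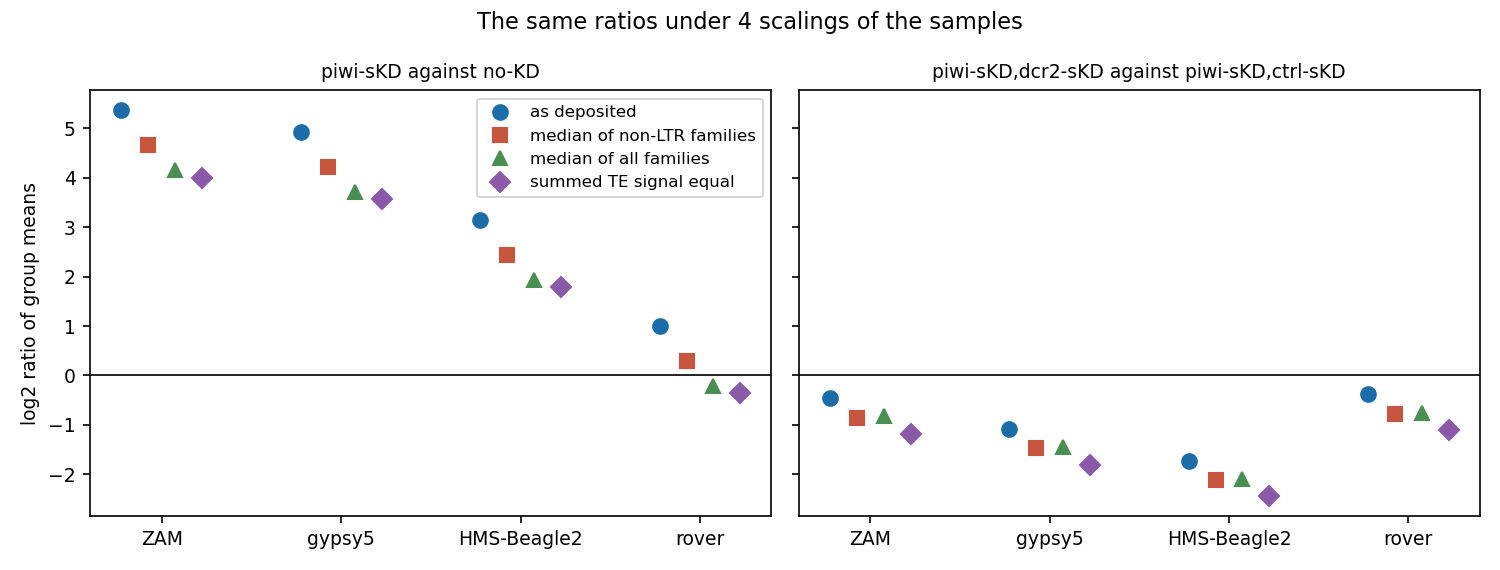
Log2 ratio of group means of the 4 families in the first (left) and second comparison (right) under the deposited scaling and 3 others. In the first comparison rover went from 1.0 as deposited to -0.21 with samples centred on the median family and -0.36 with an equal TE signal, while the other families were at 1.78 or above. All points of the second comparison lie below 0.

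The borders of the rule were narrow on the side of rover. Just outside it, with a second ratio under 1 but a first ratio not over 2-fold, were invader4 (1.88 in the first and 0.978 in the second comparison), hopper (1.55 and 0.994) and Doc3 (1.54 and 0.895). Among families over 2-fold higher in the first comparison, those with the second ratio nearest above 1 were gypsy2 (2.50 and 1.05), transib1 (3.95 and 1.1) and gypsy (13.4 and 1.13). Rover itself had 2.003 and 0.769, and ZAM had a second ratio of 0.727. BS4, a non-LTR family, has no first ratio because it is listed at 0 in both no-KD samples, and in no sample did it reach the floor of 3 reads. HMS-Beagle, chosen after its values were seen because it shares the name of HMS-Beagle2, had 3859 ± 37.0 normalised counts without and 3734 ± 343 with the Piwi knockdown. It had 3818 ± 222 with the control hairpin and 4684 ± 77.3 with the Dcr2 hairpin, ratios of 0.968 and 1.23. How reads that match related families were assigned is not stated in the sources used here, and related families may share reads.

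As deposited, the other LTR families mostly had ratios above 1 in both comparisons, as did TE families in general. Over all families 16 of 108 ratios were below 1 in the first comparison and 27 of 110 in the second. Of 50 LTR families besides the 4, limma called 32 higher and 2 lower in the first comparison and did not call 16. There 19 were over 2-fold and 6 under 1, with a median ratio of 1.47. In the second comparison 19 were higher, 0 lower (24 and 2 at an unadjusted p under 0.05) and 31 not called, with 12 over 2-fold, 9 under 1 and a median ratio of 1.25. The lowest of the 50 second ratios was 0.663. Over all families limma called 55% higher in the first comparison and 27.3% in the second, and 28.7% and 11.8% were over 2-fold. Of all 23 LTR families over 2-fold higher in the first comparison, 10 were over 2-fold higher in the second too, 9 had a second ratio between 1 and 2, and the remaining 4 are those described here. Over all families with a first ratio over 2-fold the corresponding numbers were 10, 17 and 4.

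The gypsy-lineage families with an env gene, a list of 13 that holds ZAM, gypsy5 and rover, were compared next. The list was set by name and not by sequence, and HMS-Beagle2 is not in it. Of the 10 others, limma called 7 higher and 0 lower in piwi-sKD (7 and 0 at an unadjusted p under 0.05), with 4 over 2-fold, ratios from 1.14 to 16.8, and a median log2 ratio of 0.65 against 0.47 over all families. In the second comparison limma called 4 of the 10 higher and 0 lower (5 and 0 at an unadjusted p under 0.05), with ratios from 0.866 to 7.35 and a median log2 ratio of 0.25 against 0.24 over all families. The share called higher over all families was 55% in the first comparison and 27.3% in the second. Gtwin came nearest to ZAM and gypsy5 in the first comparison, from 350.7 ± 26.3 to 5877 ± 605 normalised counts (16.8-fold), and was higher with the Dcr2 hairpin, at 13605 ± 4100 against 7077 ± 977. Gypsy, the family for which the lineage is named, went from 85.8 ± 12.9 to 1149 ± 152 in the first comparison and stood at 832 ± 17.8 and 942 ± 174 in the second, where it was not called. Springer had the highest second ratio of the 10, at 1432 ± 104 normalised counts with the control hairpin and 10522 ± 1057 with the Dcr2 hairpin, after 144 ± 21.5 in no-KD and 543 ± 69.5 in piwi-sKD. Idefix had the lowest second ratio of the 10, from 174 ± 5.25 to 150 ± 26.9, and was not called. Of the 10 families 2 had a second ratio under 1, Tirant and Idefix.

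The families whose course over the 8 samples was most like that of each of the 4 were taken by the Pearson correlation of log2(normalised count + 1) among 101 other families. Samples share groups, libraries and size factors, so these are descriptions with no p. For ZAM they were Quasimodo (r = 0.934), G6 (0.932) and diver2 (0.896), and for gypsy5 they were gypsy (0.972), accord2 (0.956) and mariner2 (0.945). For HMS-Beagle2 they were gypsy2 (0.891), gypsy (0.886) and invader4 (0.878), and for rover gypsy4 (0.873), Quasimodo (0.861) and gypsy (0.852). Gypsy was named for 3 of the 4 families and Quasimodo for ZAM and rover. With each table centred on its own mean the order changed, and Doc3 led for HMS-Beagle2 (r = 0.945) and rover (0.958), against 0.0062 and 0.446 over the samples as deposited. The 4 families were chosen for a shared course, higher in the first comparison and lower in the second, so correlations among them describe that choice. Among the 4 themselves gypsy5 and HMS-Beagle2 were most alike (r = 0.970) and ZAM and HMS-Beagle2 least (0.713). The others lay between, at 0.919 for ZAM and rover, 0.890 for gypsy5 and rover, 0.868 for HMS-Beagle2 and rover and 0.810 for ZAM and gypsy5. With each table centred on its own mean ZAM and gypsy5 were instead most alike (0.990), and ZAM and HMS-Beagle2 again least (0.912).

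The annotated insertions of the 4 families in the reference genome, a property that the rule did not use, show where they lie and what flamenco holds of them. Coordinates are from the BDGP6.54 annotation of the reference strain, and the insertions that these flies carry were not analysed here. Counts per family cannot be assigned to a single insertion. Over 54 LTR families the number of insertions had a median of 18.5 and ran from 2 to 144. All 4 were under that median, with 5 insertions of ZAM, 10 of gypsy5, 12 of HMS-Beagle2 and 13 of rover, and 5 LTR families had fewer than ZAM.

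In the reference strain ZAM was represented by a single long insertion and 4 shorter ones. For the flies of the study, a probability calculation in the paper uses 4 initial active ZAM copies. The long insertion of the reference lay on chromosome 2R from 1808663 to 1817084 (8422 bp, plus strand), outside annotated genes. A fragment of 1131 bp lay on chromosome 3L from 23652460 to 23653590 in an intron of AGO3, which encodes a Piwi-family protein of the germline, and another of 514 bp on chromosome 2R from 4820129 to 4820642 in an intron of CG17528. Gypsy5 also had a single insertion of at least 7000 bp, on chromosome X from 11194484 to 11201847 (7364 bp, minus strand), outside annotated genes. Its other copies were at most 2786 bp long, and a fragment of 400 bp lay in an intron of AGO3 too, on chromosome 3L from 23559621 to 23560020. In this reference ZAM and gypsy5 were thus the families with the fewest long copies among the 4.

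HMS-Beagle2 had 4 insertions of at least 7000 bp and rover 9, while 37 of the 54 LTR families had at least 1. Those of HMS-Beagle2 were on chromosome X from 22681537 to 22688942, in an intron of lncRNA:CR44997, and outside annotated genes on chromosome 3L from 23437602 to 23444933, 3R from 6175228 to 6182447 and 2R from 4841470 to 4848583. The longest of rover was on chromosome 3L from 27732175 to 27740580 (8406 bp), outside annotated genes. Long copies of rover overlapped an exon of be on chromosome X from 15034147 to 15041616, and lay in introns of pyd (3R from 8906389 to 8913800), Myo81F (3R from 1040128 to 1047597), CG41520 (2R from 1692833 to 1700302) and kl-3 on chromosome Y from 478056 to 485215. In all, annotated insertions spanned 10611 bp for ZAM, 18787 bp for gypsy5, 35091 bp for HMS-Beagle2 and 73901 bp for rover.

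**Figure D4:**
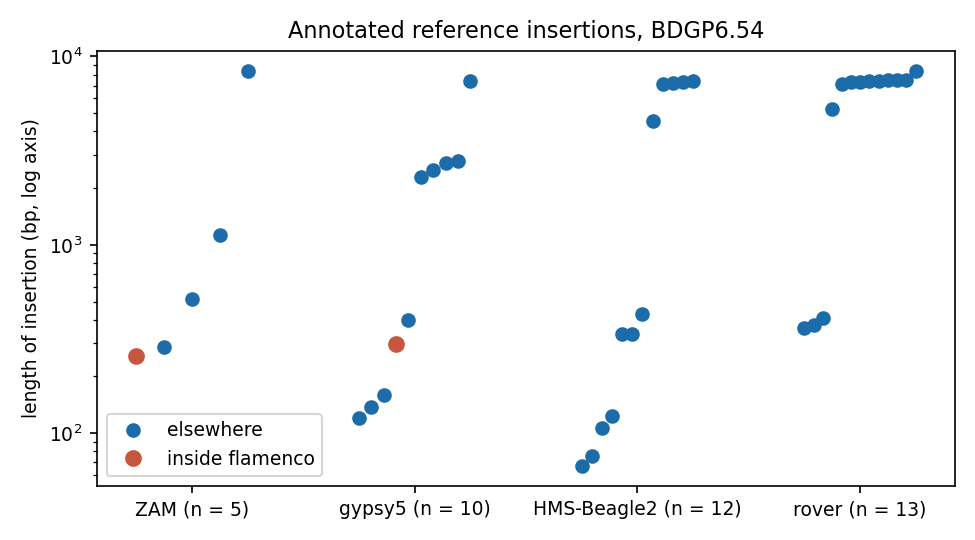
Length in bp (log axis) of every annotated insertion of ZAM (5), gypsy5 (10), HMS-Beagle2 (12) and rover (13) in the BDGP6.54 reference, sorted within a family. Red points are the insertions inside flamenco, 257 bp of ZAM and 299 bp of gypsy5, and the long copies of at least 7000 bp number 1, 1, 4 and 9.

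In the flamenco gene (lncRNA:flam, chromosome X from 21631891 to 21790731, plus strand) 16 of the 54 LTR families had an annotated insertion, 36 insertions in all, of which 32 lay on the strand opposite to the gene. ZAM and gypsy5 had 1 each. The ZAM insertion ran from 21668988 to 21669244 (257 bp) in an intron and the gypsy5 insertion from 21669671 to 21669969 (299 bp) in an exon, both opposite to flamenco and 426 bp apart. HMS-Beagle2 and rover had none there in this annotation.

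Flamenco was not the only place where insertions of the 4 families lay next to each other. Of their 40 insertions 11 lay within 10000 bp of an insertion of another of the 4, in 7 pairs, the flamenco pair included. On chromosome 3L a ZAM fragment (23436586 to 23436872), the HMS-Beagle2 copy from 23437602 and a gypsy5 fragment (23445442 to 23445562) followed one another with gaps of 729 and 508 bp. On chromosome X a gypsy5 copy (22427099 to 22429821) and a rover copy (22430064 to 22435354) were 242 bp apart on the same strand. On chromosome 2R an HMS-Beagle2 fragment lay 3645 bp from a gypsy5 copy, and another lay 2336 bp from a rover fragment. How often other families lie so close was not counted.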

How the data were processed

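RNA was TRIzol-extracted from ovaries, polyA-enriched and sequenced from TruSeq libraries. Per the study's methods, reads were trimmed with UrQt, genes were counted with TopHat2 and eXpress, and TE families with TEcount of TEtools. The submitters' processing notes name DESeq2 1.10 and dm3. The deposited signal is the authors' normalised read count per TE family, in 2 tables of 4 samples each with size factors from gene and TE counts together. All 8 columns of values were used and 0 were left out. The values of a sample were multiples of a common step (100% of them whole within 1e-06), from which size factors and reads were derived. Intervals and floors rest on these derived reads, which were not accepted as counts for a test, and cover counting error only.

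Groups came from the sample titles. The 4 families, the lists and the tests were chosen with earlier results of these data known. Further families were named by rule: the 3 most correlated with each of the 4, the 3 just outside each part of the selection, and the env-gene list by counts with at most 5 named. Ratios are of group means with no pseudocount. Each comparison was fitted across all families not at 0 in every sample with limma 3.58.1 in R 4.3.3 on log2(normalised count + 1), with a mean-variance trend, Benjamini-Hochberg adjustment and a threshold of 0.05. The p-values rest on the spread between 2 replicates. In the first comparison the spread of each family was drawn towards the trend over all families (6.11 prior degrees of freedom). In the second comparison it was pooled over all families. The fit was also run on 20 simulated tables per comparison. These gave every family the same assumed spread and no shift shared by families, so they do not show the error rates in these data. Alternatives were 3 other scalings, other pseudocounts and filters, no trend, a replicate block and leaving out each sample. Insertions came from the BDGP6.54 annotation, in which all 54 LTR families matched by name. No sequence was read.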

Additional observations from a re-analysis of the deposited data

How the results depend on the processing

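Log2 ratios of ZAM, gypsy5, HMS-Beagle2 and rover in the first comparison were 5.37, 4.93, 3.15 and 1.0 as deposited. They were 4.0, 3.56, 1.78 and -0.36 with the summed TE signal made equal, 4.16, 3.72, 1.93 and -0.21 when each sample was centred on its median family, and 4.65, 4.22, 2.44 and 0.30 with the median of non-LTR families. In the second comparison they were -0.46, -1.08, -1.73 and -0.38 as deposited, -1.19, -1.81, -2.45 and -1.10 with equal TE signal, -0.83, -1.44, -2.10 and -0.75 with the median of all families, and -0.85, -1.47, -2.12 and -0.78 with that of non-LTR families. Rover alone changed direction, in the first comparison, and the cause was not tested. Leaving out each replicate in turn gave 5.20 to 5.53, 4.82 to 5.04, 3.08 to 3.22 and 0.88 to 1.13 in the first comparison, and -0.56 to -0.35, -1.27 to -0.91, -1.75 to -1.70 and -0.50 to -0.25 in the second.

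Families called by limma, 60 higher and 6 lower in the first comparison, were 22 and 78 with equal TE signal, 22 and 71 with the median of all families, 28 and 35 with that of non-LTR families, 57 and 3 with no filter, and 46 to 60 and 3 to 5 without 1 replicate (46 and 3 without no-KD replicate 2). The 30 higher and 4 lower of the second comparison were 12 and 65, 16 and 19, and 14 and 17 under the same scalings, and 23 to 29 and 2 to 5 without 1 replicate (25 and 2 without piwi-sKD,dcr2-sKD replicate 1, 23 and 2 without replicate 2). Where a replicate was left out, the lone sample was assumed to vary like the other group.

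Nothing in the labels says that replicate numbers pair the samples. Same-numbered samples had correlated deviations of -0.130 in the first and 0.25 in the second comparison. With the replicate block limma called 53 higher and 5 lower (56 shared) and 33 higher and 3 lower (33 shared), and the log2 ratios of the 4 families were 5.36, 4.92, 3.13 and 1.01, then -0.46, -1.09, -1.72 and -0.38. With the numbers crossed in the first comparison, an alternative added after the data were seen, there were 64 higher and 8 lower. Other pseudocounts and filters and the fit without a trend kept both counts within 1.5 times, apart from the 3 lower families with no filter in the first comparison. Shares of the TE signal without Tirant, also added after the data were seen, moved by more than the replicate spread in all 10 cases of the double knockdowns and in 0 of 10 of the first table. The count-based tests planned as alternatives were not run, because too few low values were available to accept the recovered reads as counts. With 2 replicates a group and HMS-Beagle2 at 64 and 62 reads in no-KD, its first ratio is the least precise in counting terms.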
